A study of Homo sapiens with 6 samples.

Results

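Ubiquitin is attached to proteins by a relay of enzymes. An E1 enzyme activates it, an E2 conjugating enzyme carries it as a thioester, and an E3 ligase brings the loaded E2 to the substrate. The E2 largely sets which kind of ubiquitin chain is built: UBE2N with a UBE2V partner makes K63-linked chains, UBE2K, UBE2R2, UBE2G1 and UBE2G2 make K48-linked chains, and the UBE2D enzymes start and extend chains of several linkages. A few E2 enzymes carry ubiquitin-like proteins such as NEDD8 and ISG15. STUB1, also called CHIP, is a U-box E3 ligase that binds chaperones of the HSP70 and HSP90 families and works with UBE2D enzymes, with UBE2N and its UBE2V partners, and with UBE2W, which places a first ubiquitin on the amino terminus of proteins. The expression of the E2 genes was therefore set out in cells with and without added STUB1.

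The cells were TFK1, a human cell line that originates from a carcinoma of the extrahepatic bile duct. They had been transduced with lentivirus and selected with puromycin, either with a negative control construct (oeNC, n = 3 libraries) or with a construct that overexpresses STUB1 (oeSTUB1, n = 3 libraries), so the control cells had also been through transduction and selection. The study describes stably selected populations, and the labels do not say whether the 3 libraries of a group came from separate cultures, so the p-values measure only the spread between these libraries. The E2 genes were taken as every gene whose symbol is UBE2 followed by 1 letter and optional digits, which left out antisense, divergent and readthrough genes. There were 33 such genes among 23569 listed, and 32 of them passed the filter of a mean of at least 0.1 FPKM (fragments counted on a gene, scaled to its length and to the size of the library) that left 15353 genes to test. UBE2L5, a gene close to UBE2L3, was the member under the filter, with 0.0211 to 0.0634 FPKM.

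Depth was even, with library totals of 33106564 to 36744521 fragments, and the E2 genes together took 0.270% to 0.274% of the fragments in oeNC and 0.281% to 0.323% in oeSTUB1. The FPKM of STUB1 was 32.9, 33.0 and 30.9 in oeNC replicates 1 to 3 against 61.4, 75.0 and 61.9 in oeSTUB1, a log2 fold change of 1.03 ± 0.097 (SE; limma, adjusted p = 0.00064), so the labels held for the overexpressed gene. Exons of JMJD8 on the opposite strand cover 42.4% of the exonic bases of STUB1. The library oeSTUB1 replicate 2 stood apart: fragments in it came from genes with a mean length of 4207 bases, against 4736 to 4891 bases in the other 5 libraries, and values that it moved most are given with and without it. Of 8 biliary epithelial markers, 5 were lower in oeSTUB1 and 1 was higher, where 6.59% of all tested genes were lower and 7.01% higher. KRT7, named after its values were seen, stood at 482 to 527 FPKM in oeNC and 587 to 872 FPKM in oeSTUB1. Its log2 fold change was 0.47 (limma, adjusted p = 0.082), and 0.30 without oeSTUB1 replicate 2 (limma, adjusted p = 0.013). The duct keratin KRT19 stood at only 0.374 to 0.529 FPKM in oeNC and 2.51 to 3.41 FPKM in oeSTUB1 (log2 fold change 2.47), while the log2 fold changes were -1.13 for EPCAM, -1.09 for CDH1 and -0.68 for KRT18, and the part of this shift in the E2 values was not tested. Of 12 markers of blood, vessel, stroma and liver cells, 4 passed the filter and 0 were called by limma (1 at an unadjusted p under 0.05, 0 by limma-voom). Their summed level was 6.52 to 7.73 FPKM in oeNC and 7.86 to 9.79 FPKM in oeSTUB1, most of it from CD14 and COL1A1, with VWF and DCN at or below 0.00833 FPKM in every library, and the part of this in the E2 values was not tested. In such bulk RNA, fewer cells of a type and less RNA per cell cannot be told apart.

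The E2 genes moved little. With an adjusted p under 0.05 as the call, 3 of 32 tested E2 genes (9.38%) were higher in oeSTUB1 and 0 were lower, where 13.6% of all tested genes were called, 7.01% as higher and 6.59% as lower. The 3 were UBE2Q2, UBE2N and UBE2G2. At an unadjusted p under 0.05 there were 9 E2 genes, 8 higher and 1 lower (28.1%, against 29.7% of all tested genes), and limma-voom on whole fragments called 4 higher and 0 lower. No E2 gene passed the call together with a more than 2-fold change, which 5.20% of all tested genes did. The log2 fold changes of the E2 genes ran from -0.30 for UBE2L6 to 0.46 for UBE2D4, which is at most a 1.38-fold difference. Their median absolute log2 fold change was 0.18, against 0.21 over all tested genes.

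The direction was uneven even though few E2 genes passed the test. The median log2 fold change was 0.13 over the E2 genes and 0.02 over all tested genes, and 26 of 32 E2 genes (81.2%) lay above 0, against 52.6% of all tested genes. The libraries of the groups did not overlap for 20 E2 genes (62.5%, against 38.8% of all tested genes), 17 with oeSTUB1 above oeNC (53.1%, against 21.5%) and 3 with it below (against 17.3%). Among the 11375 genes that averaged 1 FPKM or more, where nearly all E2 genes lie, the shares were 23.9% above and 16.4% below. Part of this moved with 1 library. oeSTUB1 replicate 2 held the highest of the 6 values in 21 of 32 E2 genes (65.6%), against 30.4% of all tested genes. Without it the median was 0.10 against 0.03 over all tested genes, and 24 E2 genes lay above 0. Quantile normalization left 20 E2 genes above 0.

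**Figure D1:**
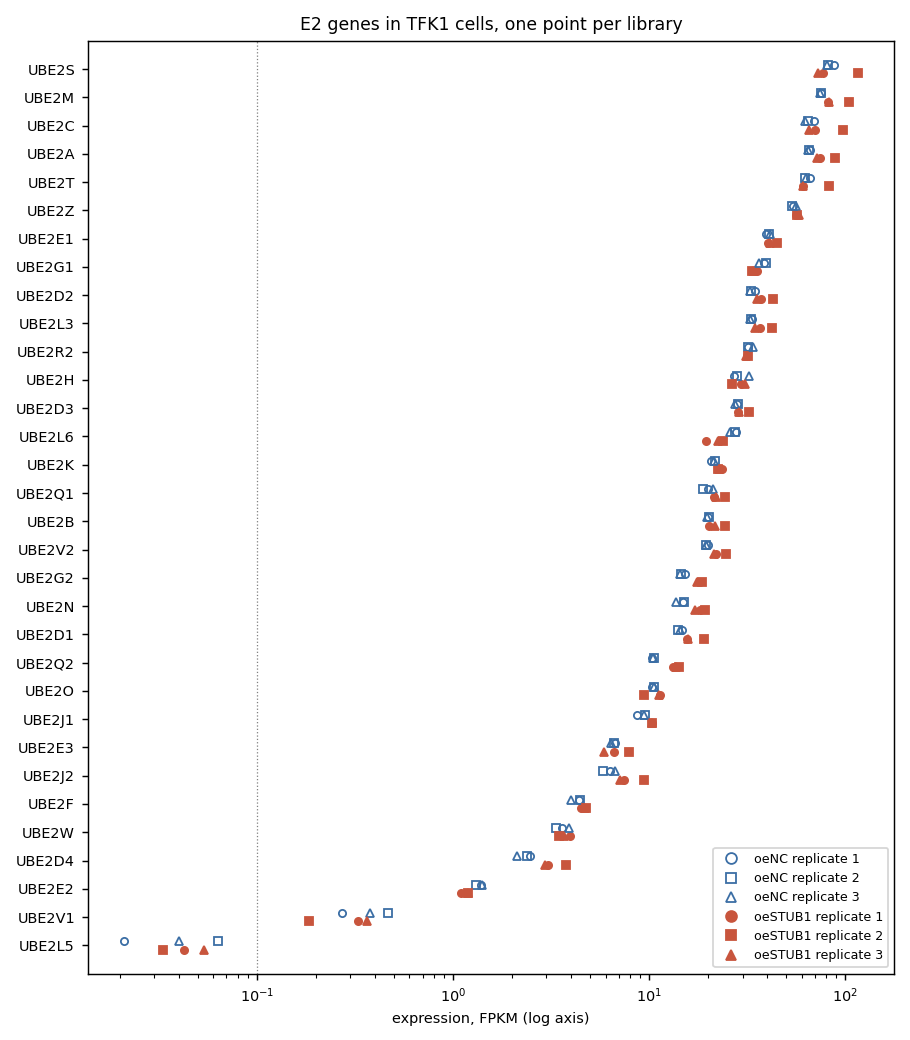
Expression of the E2 genes described here in FPKM on a log axis, 1 point per library, ordered by the oeNC mean, with open blue symbols for oeNC and filled red symbols for oeSTUB1; circles, squares and triangles are replicates 1, 2 and 3. The genes span 0.0414 FPKM (UBE2L5) to 83.6 FPKM (UBE2S) in oeNC, the red squares of oeSTUB1 replicate 2 lie farthest right in most of them, and the dotted line marks the filter at 0.1 FPKM.

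The promoters of the 3 genes that rose were looked at because the study concerns the methylation of promoter CpG sites. RefSeq start sites on GRCh38.p14 gave a window of 250 bases upstream for 25 of the 33 E2 genes. The window held a median of 28 CpG sites in these E2 genes and 11 over 27305 genes, and its median GC content was 72% against 58%. The 27305 genes were not limited to those expressed in these cells, as nearly all E2 genes were, and the medians over the tested genes were not taken. UBE2G2 held 28 CpG sites, at the median of these E2 genes, while UBE2Q2 held 32 and UBE2N 33, above it. The windows of these E2 genes ranged from 14 CpG sites (UBE2Z) to 39 (UBE2E2). The stretches that lie outside every annotated exon are shown 5′ to 3′ on the strand of the gene, with CpG sites in capitals, at chr15:75843197-75843284 on the plus strand for UBE2Q2 and at chr21:44802020-44802070 on the minus strand for UBE2G2. Annotated exons took up 162 of the 250 window bases of UBE2Q2 and 199 of those of UBE2G2. The window of UBE2N lies wholly inside a first exon annotated in GENCODE and is not shown. Methylation was not measured in these libraries.
UBE2Q2: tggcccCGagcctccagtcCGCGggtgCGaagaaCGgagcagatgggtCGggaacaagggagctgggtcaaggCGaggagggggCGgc
UBE2G2: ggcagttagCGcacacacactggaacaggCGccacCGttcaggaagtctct

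UBE2Q2, an E2 with a long amino-terminal extension, had the smallest adjusted p of the family. The gene lies at chr15:75843285-75901078 on the plus strand (GRCh38, GENCODE release 29). It stood at 10.4, 10.6 and 10.5 FPKM in oeNC and at 13.3, 14.2 and 13.8 FPKM in oeSTUB1. All 3 oeSTUB1 libraries lay above all 3 oeNC libraries, and each group was tight. The log2 fold change was 0.39 ± 0.073 (SE; limma, adjusted p = 0.012), or 1.31-fold. The call was present in 13 of 16 alternative settings, and it was absent when any of the 3 oeNC libraries was left out, where the adjusted p reached 0.076 while the log2 fold change stayed between 0.37 and 0.42 over all 6 omissions. UBE2Q2 has 8 annotated pseudogenes, so its reads are uncertain where copies are near-identical.

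UBE2G2, the K48 chain builder of endoplasmic reticulum quality control, lies at chr21:44768580-44802019 on the minus strand. It stood at 15.2, 14.6 and 14.4 FPKM in oeNC and at 18.2, 18.6 and 17.6 FPKM in oeSTUB1. Again the groups did not overlap. Its log2 fold change was 0.30 ± 0.072 (SE; limma, adjusted p = 0.033). The call was present in 7 of 16 alternative settings. It was absent when any oeNC library, oeSTUB1 replicate 1 or oeSTUB1 replicate 3 was left out (adjusted p up to 0.16), and without oeSTUB1 replicate 2 the adjusted p was 0.0085.

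UBE2N is the E2 that is the catalytic subunit of the K63 chain builder. It lies at chr12:93405673-93442262 on the minus strand and stood at 14.9, 15.0 and 13.7 FPKM in oeNC. In oeSTUB1 it stood at 18.3, 19.4 and 17.1 FPKM, above every oeNC library. The log2 fold change was 0.33 ± 0.083 (SE; limma, adjusted p = 0.038), or 1.25-fold, and UBE2N was the only 1 of the 6 STUB1-partner E2 genes that was called. Over the omissions of each library the log2 fold change lay between 0.28 and 0.37, and the call, present in 7 of 16 alternative settings, was absent without any oeNC library, oeSTUB1 replicate 1 or oeSTUB1 replicate 3 (adjusted p up to 0.15) and present without oeSTUB1 replicate 2 (adjusted p = 0.015). Exons of NUDT4 on the opposite strand share 39.5% of the exonic bases of UBE2N, and the strand setting of the counting is not given in the sources used here. NUDT4, named after its values were seen, stood at 2.62 to 2.79 FPKM in oeNC and 3.11 to 3.22 FPKM in oeSTUB1 (log2 fold change 0.20, limma, adjusted p = 0.2).

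The UBE2V proteins lack a catalytic cysteine and steer UBE2N to lysine 63 of ubiquitin. UBE2V2, also called MMS2, stood at 20.1, 19.5 and 19.5 FPKM in oeNC and at 22.0, 24.7 and 21.5 FPKM in oeSTUB1. These groups did not overlap either, but the log2 fold change of 0.20 ± 0.081 (SE) did not pass the test (limma, adjusted p = 0.14). UBE2V1 was at the bottom of the tested family, with 0.271, 0.467 and 0.377 FPKM in oeNC and 0.327, 0.184 and 0.364 FPKM in oeSTUB1. These values came from 26 to 69 fragments per library, the groups overlapped, and the 95% confidence interval of the log2 fold change ran from -0.89 to 0.34 (estimate -0.28, limma, adjusted p = 0.53), so a change of the size seen for UBE2N was not detectable at this depth. The estimate rests on oeSTUB1 replicate 2, the library with 26 fragments, and is -0.06 without it (limma, adjusted p = 0.88). In the annotation, 42.9% of the exonic bases of UBE2V1 are shared on the same strand with a readthrough gene that joins it to its neighbour, and it has 15 annotated pseudogenes. How reads that fit several genes were counted is not given in the sources used here, and the part of this in the low values was not tested.

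Because UBE2N and its partners act as pairs, their levels were set against each other within each library on the FPKM scale, which is per length, so that the scaling of a library cancels. The ratio of UBE2V2 to UBE2N was 1.35, 1.30 and 1.42 in oeNC and 1.21, 1.28 and 1.25 in oeSTUB1. The ratios of the groups did not overlap, with means of 1.36 ± 0.0609 and 1.24 ± 0.0365 (SD, n = 3 each). A two-sided exact permutation test gave p = 0.1, the lowest value that 3 against 3 libraries can reach. UBE2V2 was thus above UBE2N in every library, by less in oeSTUB1. The ratio of UBE2V1 to UBE2N was 0.0256 ± 0.00673 in oeNC and 0.0162 ± 0.00604 in oeSTUB1, with overlap between the groups (SD, n = 3 each; exact permutation p = 0.2), and the oeSTUB1 mean was 0.0196 without replicate 2. The balance of ligase to E2 transcripts moved by construction: STUB1 stood at 2.22 ± 0.0223 times the FPKM of UBE2N in oeNC and at 3.61 ± 0.257 times in oeSTUB1 (SD, n = 3 each).

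**Figure D2:**
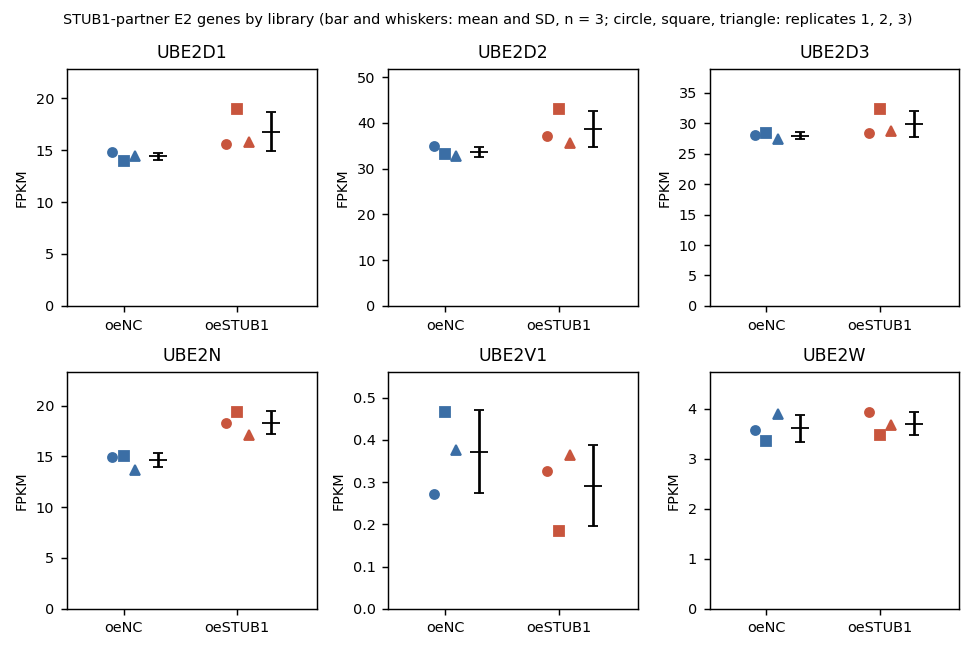
FPKM of the 6 STUB1-partner E2 genes in each library on linear axes from 0, with 3 oeNC libraries on the left and 3 oeSTUB1 libraries on the right of each panel; black bars are the mean and whiskers the SD (n = 3). The groups do not overlap for UBE2D1, UBE2D2 and UBE2N and overlap for UBE2D3, UBE2V1 and UBE2W.

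UBE2D enzymes are the most widely used E2 partners of RING and U-box ligases. UBE2D1 stood at 14.8, 14.0 and 14.4 FPKM in oeNC and at 15.6, 19.0 and 15.8 FPKM in oeSTUB1. UBE2D2, the most abundant of the 4, stood at 34.9, 33.1 and 32.7 FPKM in oeNC and at 37.1, 43.1 and 35.6 FPKM in oeSTUB1. In both genes every oeSTUB1 library lay above every oeNC library, with replicate 2 highest, and neither passed the test, with log2 fold changes of 0.22 ± 0.095 (SE; limma, adjusted p = 0.17) and 0.20 ± 0.091 (SE; limma, adjusted p = 0.19). Without oeSTUB1 replicate 2 these were 0.13 and 0.12 (limma, adjusted p = 0.11 and 0.12). UBE2D3 stood at 28.1, 28.4 and 27.4 FPKM in oeNC and at 28.4, 32.4 and 28.8 FPKM in oeSTUB1. The UBE2D3 groups met at 28.4 FPKM, and its log2 fold change of 0.09 had a 95% confidence interval from -0.09 to 0.27 (limma, adjusted p = 0.49), and it was 0.03 without oeSTUB1 replicate 2 and -0.01 after quantile normalization. UBE2D3 has 4 annotated pseudogenes. UBE2D4, the least abundant, stood at 2.47, 2.39 and 2.13 FPKM in oeNC and at 3.07, 3.77 and 2.94 FPKM in oeSTUB1. Its groups did not overlap, and its log2 fold change of 0.46 ± 0.13 (SE) was the largest of the family but fell short of the call (limma, adjusted p = 0.054). It was called in 3 of 16 alternative settings, among them the fit without oeSTUB1 replicate 2 (log2 fold change 0.36, limma, adjusted p = 0.036). Exons of other genes on the opposite strand share 15.5% of the exonic bases of UBE2D4.

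As shares of the summed UBE2D level, UBE2D3 made up 35.8% ± 0.731 in oeNC and 33.8% ± 0.825 in oeSTUB1, while UBE2D4 made up 2.97% ± 0.170 and 3.68% ± 0.156 (SD, n = 3 each). Neither share overlapped between the groups (exact permutation test, two-sided, p = 0.1 each, again the lowest value possible). For UBE2D3 the lowest oeNC share was 35.0% and the highest oeSTUB1 share was 34.6%. Without oeSTUB1 replicate 2 the oeSTUB1 means were 34.2% for UBE2D3 and 3.59% for UBE2D4. The shares of UBE2D1, at 18.4% and 19.0%, and of UBE2D2, at 42.9% and 43.6%, overlapped (exact permutation p = 0.2 each). The order UBE2D2, UBE2D3, UBE2D1, UBE2D4 was the same in all 6 libraries. STUB1 came to 0.412 ± 0.0107 times the summed UBE2D level in oeNC and 0.746 ± 0.0171 times in oeSTUB1 (SD, n = 3 each), so that the UBE2D transcripts outnumbered STUB1 per length in both groups.

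**Figure D3:**
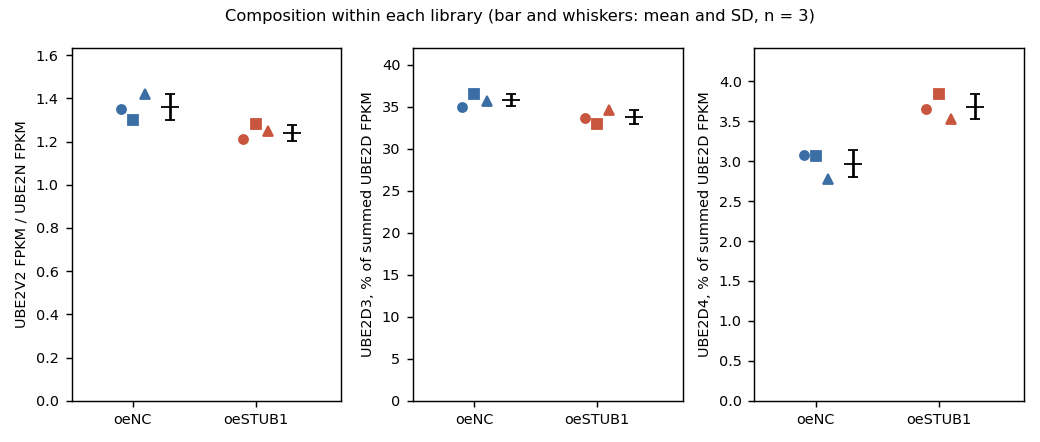
Composition within each library on linear axes from 0: the ratio of UBE2V2 to UBE2N FPKM, and UBE2D3 and UBE2D4 as a percent of the summed UBE2D FPKM, with circles, squares and triangles for replicates 1, 2 and 3, and bars and whiskers for the mean and SD (n = 3). UBE2D4 goes from 2.97% to 3.68% and UBE2D3 from 35.8% to 33.8%, and in each panel the groups do not overlap.

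UBE2W stood at 3.58, 3.36 and 3.89 FPKM in oeNC and at 3.94, 3.48 and 3.68 FPKM in oeSTUB1. The groups overlapped, and the log2 fold change was 0.04 with a 95% confidence interval from -0.20 to 0.28 (limma, adjusted p = 0.85), and 0.08 without oeSTUB1 replicate 2.

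Among the other K48 chain builders, none was called. UBE2R2, a partner of cullin-RING ligases, averaged 32.6 ± 1.13 FPKM in oeNC and 31.7 ± 0.279 FPKM in oeSTUB1, and UBE2K, which extends K48 chains, 21.3 ± 0.485 and 23.0 ± 0.635 FPKM (SD, n = 3 each). UBE2G1, the close relative of UBE2G2, pointed the other way from it, with every oeSTUB1 library below every oeNC library and a log2 fold change of -0.15 (limma, adjusted p = 0.2). The difference between the changes of UBE2G1 and UBE2G2 was not tested. The membrane-anchored E2 enzymes of the endoplasmic reticulum, UBE2J1 and UBE2J2, both had oeSTUB1 above oeNC without overlap, and their log2 fold changes of 0.17 and 0.33 did not pass the test (limma, adjusted p = 0.2 and 0.12). That of UBE2J2 was 0.21 without oeSTUB1 replicate 2.

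UBE2C and UBE2S start and extend ubiquitin chains on substrates of the anaphase-promoting complex in mitosis, and both were among the most abundant members. UBE2S stood at 88.2, 81.5 and 81.3 FPKM in oeNC and at 76.9, 116 and 72.7 FPKM in oeSTUB1. UBE2C stood at 69.7, 64.7 and 62.7 FPKM in oeNC and at 70.3, 97.0 and 65.5 FPKM in oeSTUB1. In both genes oeSTUB1 replicate 2 was far above the other 5 libraries. The log2 fold change of UBE2S was 0.05 with all libraries (limma, adjusted p = 0.87) and -0.16 without that library (limma, adjusted p = 0.061), and that of UBE2C went from 0.22 to 0.05. Of 20 cell cycle genes, 0 were higher by limma (2 at an unadjusted p under 0.05, 0 by limma-voom) and 1 was lower, the spindle checkpoint kinase BUB1 (log2 fold change -0.39, limma, adjusted p = 0.03), with a median of -0.08, where 7.01% of all tested genes were higher and 6.59% lower. Without oeSTUB1 replicate 2, 1 of the 20 was higher and 3 were lower, where 14.8% of all tested genes were higher and 12.0% lower.

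Among the E2 genes of DNA repair, UBE2T gave a similar picture. UBE2T, which loads ubiquitin onto the FANCD2 complex of interstrand crosslink repair, stood at 66.5, 62.6 and 63.2 FPKM in oeNC and at 61.1, 82.3 and 61.0 FPKM in oeSTUB1. Only replicate 2 of oeSTUB1 exceeded the oeNC libraries, and the log2 fold change was 0.07 with it and -0.07 without it (limma, adjusted p = 0.73 and 0.28). UBE2A and UBE2B, the paralogous RAD6 enzymes of damage tolerance and histone ubiquitination, had log2 fold changes of 0.25 and 0.14 (limma, adjusted p = 0.12 and 0.33). The UBE2A groups did not overlap, with oeSTUB1 above oeNC, and the UBE2B groups did. Without oeSTUB1 replicate 2 UBE2A was called at a log2 fold change of 0.16 (limma, adjusted p = 0.028), and UBE2B was at 0.07. Exons of NKRF share 18.1% of the exonic bases of UBE2A, which number 5276 in the annotation, where the length behind its FPKM is 1776 bases.

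**Figure D4:**
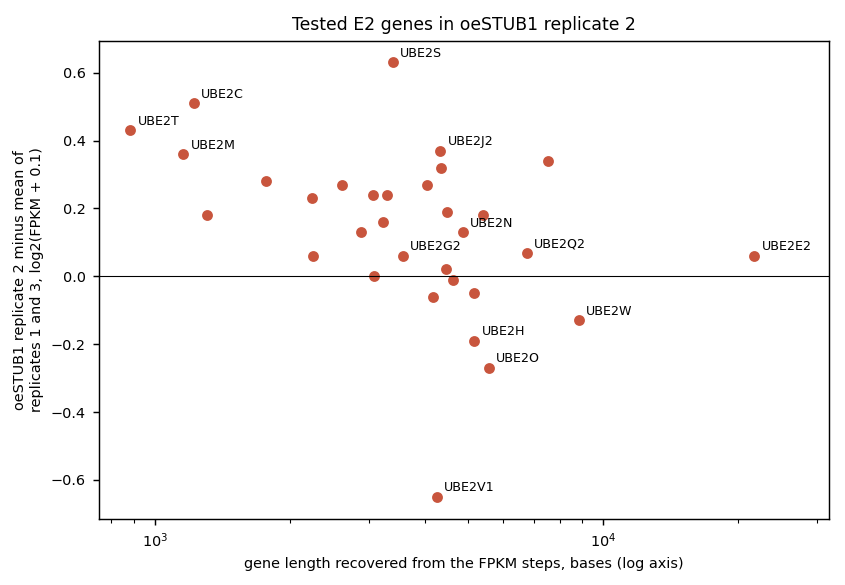
For each of the 32 tested E2 genes, the log2(FPKM + 0.1) value of oeSTUB1 replicate 2 minus the mean of oeSTUB1 replicates 1 and 3, against the gene length in bases recovered from the FPKM steps, on a log axis. The short genes UBE2T (0.43), UBE2C (0.51) and UBE2M (0.36) and the gene UBE2S (0.63) lie high, and UBE2O (-0.27) and UBE2V1 (-0.65) lie low.

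The deviation of oeSTUB1 replicate 2 went with gene length. Over the 32 tested E2 genes the Spearman correlation between recovered gene length and that deviation was -0.50, and over all tested genes it was -0.56. These are descriptions across genes that share the same 3 libraries. The 16 shorter E2 genes had a median deviation of 0.24 and the 16 longer ones of 0.04, and the median was 0.17 over the tested E2 genes and -0.01 over all tested genes. The median gene length of the tested E2 genes was 4109 bases, against 3694 bases for all tested genes, so the family as a whole was not short. Without this library 7 E2 genes were higher (among them UBE2A, UBE2D4, UBE2G2, UBE2M, UBE2N and UBE2Q2) and 1 was lower (UBE2L6), which is 25.0% of the tested E2 genes, where 26.8% of all tested genes were called, 14.8% as higher and 12.0% as lower.

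**Figure D5:**
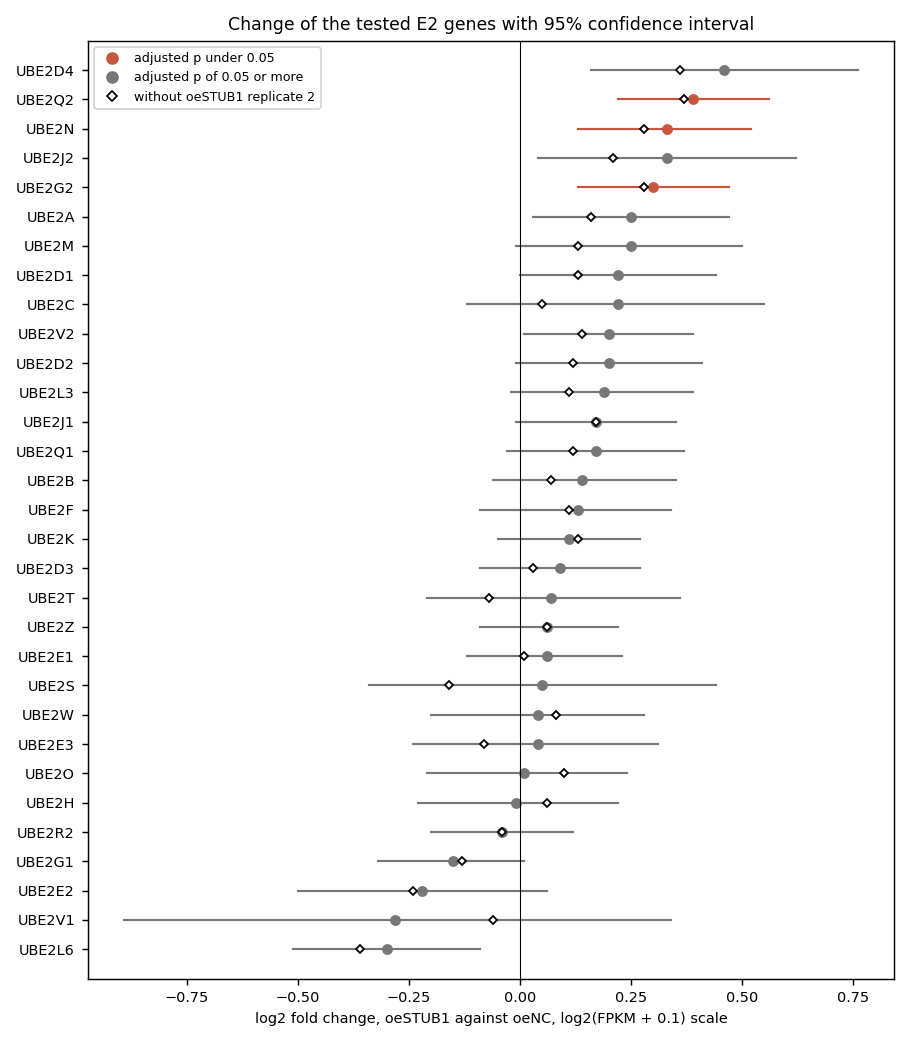
Log2 fold change, oeSTUB1 against oeNC, of the tested E2 genes described here with 95% confidence intervals from limma; filled red points passed an adjusted p of 0.05, grey points did not, and open diamonds are the estimates without oeSTUB1 replicate 2. UBE2Q2, UBE2N and UBE2G2 are the red points, the estimates span -0.30 to 0.46, and the diamonds of UBE2S, UBE2T and UBE2E3 cross to the left of 0.

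Of the E2 enzymes that carry ubiquitin-like proteins, UBE2L6 showed the lowest log2 fold change of the whole family. It conjugates ISG15 and is itself an interferon-induced gene. It stood at 27.7, 27.4 and 26.0 FPKM in oeNC and at 19.6, 23.9 and 22.6 FPKM in oeSTUB1. Every oeSTUB1 library lay below every oeNC library, and the log2 fold change of -0.30 ± 0.092 (SE) missed the call with all libraries (limma, adjusted p = 0.073) and passed it without oeSTUB1 replicate 2 (log2 fold change -0.36, limma, adjusted p = 0.0097). UBE2L6 was not among the 14 tested genes of the interferon and ISG15 list, of which 6 were higher and 0 lower by limma, with a median log2 fold change of 0.47. At an unadjusted p under 0.05 the counts were 7 and 2, by limma-voom 5 and 0, and without oeSTUB1 replicate 2 they were 6 and 1. Among the 6 were ISG15 itself, the modifier (log2 fold change 0.95, limma, adjusted p = 0.031), IFIT3 (0.94, limma, adjusted p = 0.021), MX1 (0.87, limma, adjusted p = 0.045) and IRF7 (0.84, limma, adjusted p = 0.023). All 4 were expressed at under 5 FPKM in each library, with ISG15 at 1.40 to 1.88 FPKM in oeNC and 2.66 to 4.79 FPKM in oeSTUB1. MX1 was the lowest of the 4, at 0.0691 to 0.135 FPKM in oeNC and 0.248 to 0.313 FPKM in oeSTUB1, from 14 to 63 fragments per library. UBA7, the E1 of ISG15, and HERC5, its E3, were looked up after their values were seen, and had log2 fold changes of 0.92 and 0.16 (limma, adjusted p = 0.06 and 0.53). UBA7 stood at 0.0349 to 0.107 FPKM in oeNC and 0.165 to 0.275 FPKM in oeSTUB1, from 4 to 31 fragments per library. Its oeNC mean of 0.0677 FPKM lay below the 0.1 FPKM of the filter, so its log2 fold change rests on low values. HERC5 averaged 1.55 FPKM in oeNC and 1.76 FPKM in oeSTUB1, and its groups overlapped. Along the ISG15 relay the E2 was thus by far the most abundant enzyme per length. It was the only 1 of the 3 enzymes with a negative log2 fold change, and none of the 3 was called with all libraries.

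UBE2M and UBE2F are the E2 enzymes of NEDD8. UBE2M averaged 75.1 ± 0.622 FPKM in oeNC and 89.8 ± 13.5 FPKM in oeSTUB1, and UBE2F 4.26 ± 0.242 and 4.66 ± 0.148 FPKM (SD, n = 3 each). Both had oeSTUB1 above oeNC without overlap and neither passed the test (limma, adjusted p = 0.18 and 0.41). UBE2M was called without oeSTUB1 replicate 2 at a log2 fold change of 0.13 (limma, adjusted p = 0.047). A readthrough gene shares 16.2% of the exonic bases of UBE2F on the same strand.

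In the UBE2E family, whose members carry an amino-terminal extension before the catalytic core, none was called. UBE2E1 averaged 40.6 ± 1.12 FPKM in oeNC and 42.2 ± 2.23 FPKM in oeSTUB1, UBE2E3 6.58 ± 0.170 and 6.80 ± 1.03 FPKM, and UBE2E2 1.37 ± 0.0509 and 1.16 ± 0.0531 FPKM (SD, n = 3 each). UBE2E2 was the only member of the 3 whose groups did not overlap, with oeSTUB1 below oeNC and a log2 fold change of -0.22 (limma, adjusted p = 0.26). Without oeSTUB1 replicate 2 the log2 fold change of UBE2E3 went from 0.04 to -0.08 and that of UBE2E1 from 0.06 to 0.01.

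The remaining members were also uncalled. UBE2L3, a partner of parkin and of the linear chain assembly complex, had a log2 fold change of 0.19, UBE2Q1 of 0.17 and UBE2Z, which receives ubiquitin from the E1 UBA6, of 0.06, each with oeSTUB1 above oeNC and no overlap (limma, adjusted p = 0.2, 0.23 and 0.58). Without oeSTUB1 replicate 2 that of UBE2L3 was 0.11. UBE2O, a large enzyme that acts as E2 and E3 in 1 chain, and UBE2H, the E2 of the CTLH ligase complex, had overlapping groups and log2 fold changes of 0.01 and -0.01 (limma, adjusted p = 0.95 and 0.97), which were 0.10 and 0.06 without oeSTUB1 replicate 2.

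Per length, the family covered a wide span of levels. In oeNC, 6 members stood at 50 FPKM or more, 24 at 10 FPKM or more and 31 at 1 FPKM or more, and in oeSTUB1 the counts were 6, 25 and 31. The order at the top of oeNC was UBE2S at 83.6 ± 3.91, UBE2M at 75.1 ± 0.622, UBE2C at 65.7 ± 3.60, UBE2A at 65.4 ± 0.982, UBE2T at 64.1 ± 2.14 and UBE2Z at 54.7 ± 1.34 FPKM (SD, n = 3 each). UBE2C, UBE2A and UBE2T did not differ from their neighbours in this run beyond the larger SD of the pair. UBE2G2, UBE2N and UBE2D1 formed another run of like levels, at 14.7, 14.6 and 14.4 FPKM. Of the 32 pairs of neighbours in the order, 19 were apart by this measure in oeNC and 12 in oeSTUB1, where the spread was wider. In oeSTUB1 UBE2M came first at 89.8 FPKM and UBE2S followed at 88.5 FPKM, a pair that was not apart. At the bottom stood UBE2D4, UBE2E2, UBE2V1 and UBE2L5 in both groups. The place of UBE2E2 rests on the length in its FPKM, 21768 bases as recovered from the FPKM steps, where GENCODE annotates 3274 exonic bases, and it had 825 to 1130 fragments per library against 341 to 545 for UBE2D4. Recovered and annotated lengths differed for other members too, such as UBE2E3 (7552 against 2973 bases) and UBE2A (1776 against 5276 bases). The order of levels thus depends on the lengths used. Summed, the E2 genes came to 901, 882 and 883 FPKM in oeNC and 926, 1094 and 912 FPKM in oeSTUB1, with no overlap (exact permutation test, two-sided, p = 0.1, the lowest value possible), and the oeSTUB1 mean was 977 FPKM with replicate 2 and 919 FPKM without it. All listed genes summed to 445507 FPKM in oeSTUB1 replicate 2 and to 395202 to 408809 FPKM in the other libraries. The E2 genes made up 0.220%, 0.217% and 0.219% of that sum in oeNC and 0.234%, 0.246% and 0.228% in oeSTUB1.

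The E2 genes are spread over many chromosomes, and those on the chromosomes with the lowest and the highest median did not share its sign. Among chromosomes that hold E2 genes, the median of the log2 fold changes was lowest on chromosome 2, at -0.21 for its 1031 tested genes, while the E2 genes UBE2E3 and UBE2F there stood at 0.04 and 0.13. Chromosome 9 had the highest, 0.16 for its 604 tested genes, and its E2 gene UBE2R2 stood at -0.04.

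Around the E2 genes, the rest of the relay was compared by lists, where the shares over all tested genes were those given above. In the list of 12 chaperones and cochaperones that STUB1 works with, 3 were higher and 0 lower, with a median log2 fold change of 0.27. The 3 were the constitutive HSP70 HSPA8 (log2 fold change 0.66, limma, adjusted p = 0.018), the HSP40 DNAJB1 (0.55, limma, adjusted p = 0.0052) and the nucleotide exchange factor BAG1 (0.54, limma, adjusted p = 0.019), and without oeSTUB1 replicate 2 the count was 6 higher and 0 lower. At an unadjusted p under 0.05 it was 7 higher and 0 lower, and by limma-voom 5 and 0. HSPA1A and HSPA1B, of the same list, were named after their values were seen. They had larger log2 fold changes of 1.25 and 1.02 and were not called (limma, adjusted p = 0.06 and 0.069). Of 10 deubiquitinases of K63 chains and inhibitors of UBE2N, 2 were higher and 0 lower, with a median of 0.11 (1 lower at an unadjusted p under 0.05, 0 by limma-voom; 3 higher and 1 lower without oeSTUB1 replicate 2). The 2 were TNFAIP3, also called A20, which stood at 1.07 to 1.54 FPKM in oeNC and 2.83 to 4.31 FPKM in oeSTUB1 (log2 fold change 1.42, limma, adjusted p = 0.0028), and STAMBPL1, a K63-specific metalloprotease (0.88, limma, adjusted p = 0.006). STAMBPL1 averaged 1.38 FPKM in oeNC. STAMBP, of the same list and named after its values were seen, averaged 9.45 FPKM in oeNC and 7.69 FPKM in oeSTUB1. Its log2 fold changes were -0.30 with all libraries and -0.27 without oeSTUB1 replicate 2 (limma, adjusted p = 0.067 and 0.036). Of 10 RING ligases that work with UBE2N, 1 was higher and 0 lower, with a median of 0.04, namely TRIM25 at a log2 fold change of 0.43 (limma, adjusted p = 0.025). At an unadjusted p under 0.05 it was 4 higher, and without oeSTUB1 replicate 2 it was 3 higher. Of the 10 E1 genes, 1 was higher and 0 lower, with a median of 0.12, namely SAE1 at a log2 fold change of 0.29 (limma, adjusted p = 0.049). SAE1 was called in 3 of 16 alternative settings, with an adjusted p of up to 0.2 when a library was left out. In the E1 list 4 genes were higher at an unadjusted p under 0.05, and 4 without oeSTUB1 replicate 2. By limma 0 genes were called among the 6 other U-box ligases (median -0.11) and 8 tested E2 genes with other symbols (median 0.10). At an unadjusted p under 0.05 the numbers were 1 and 4 in these lists, limma-voom called 0 and 0, and without oeSTUB1 replicate 2 limma called 1 and 3. Among the last, CDC34, the paralog of UBE2R2, was named after its values were seen. It stood at 34.7 to 37.5 FPKM in oeNC and 26.3 to 35.9 FPKM in oeSTUB1, with log2 fold changes of -0.29 with all libraries and -0.43 without oeSTUB1 replicate 2 (limma, adjusted p = 0.15 and 0.0019).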

How the data were processed

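The data are RNA-seq of TFK1 cells, with 3 oeNC and 3 oeSTUB1 libraries grouped by their labels. The authors deposited FPKM values for 23569 genes. The submitters' processing notes name fastp 0.20.1, HISAT2 2.1.0, HTSeq 0.11.2, DESeq2 1.22.2, R 3.2.0 and GRCh38.p13; the annotation release and the strand setting are not given in the sources used here. Library totals and whole fragments were recovered from the FPKM steps (23569 genes, tolerance 0.001 fragments, recomputed FPKM within 1.1e-04). Between replicates of a group the chi-square of the fragments was 3.37 to 76.7 per degree of freedom, so none was merged as a copy.

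limma 3.58.1 in R 4.3.3 (lmFit, eBayes with trend, two-sided) was run on log2(FPKM + 0.1), so fold changes understate those of low genes. A gene was tested from a mean of 0.1 FPKM up, with Benjamini-Hochberg adjustment over all 15353. A call is an adjusted p under 0.05. The fit was tested on simulated data with known changes, in which all libraries shared the same spread. That test does not cover a library that stands apart, as oeSTUB1 replicate 2 does. Python 3.11.15 was used for the rest. Positions are from GENCODE release 29, and promoter windows and chromosomes from RefSeq on GRCh38.p14. Shares of exonic bases are over all exons of a gene in the GENCODE release, not over the length behind its FPKM. These differ, at 2316 against 1429 bases for STUB1 and 6269 against 4877 bases for UBE2N.

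The E2 genes are accounted for, apart from 1 that enters the fits and counts and is not reported here. Values in every library are given for the STUB1-partner genes, the rest of the UBE2D family, UBE2V2 and the called E2 genes, and for a few more, UBE2C, UBE2S, UBE2T and UBE2L6, chosen after their values were seen. Of each list at most 4 called genes are named, those with the largest absolute log2 fold change. The members and lists were chosen with earlier results of these data known. Alternatives covered the pseudocount, filter, scaling, trend, replicate block, limma-voom on fragments, each library left out, and a correction for gene length.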

Additional observations from a re-analysis of the deposited data

How the results depend on the processing

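For the 33 fold changes of single genes, 478 of 527 alternative values kept their direction and their side of the threshold, 21 fell below it, all of them for UBE2G2, UBE2N or UBE2Q2, 11 passed it newly and 17 changed sign. Of 96 alternative counts of genes, 55 stayed within 1.5 times, 29 were lower and 12 higher. E2 genes called higher, 3 with all libraries, numbered 1 without a trend, 1 after median-ratio scaling, 1 after quantile normalization, 6 after the lowess correction for gene length, which was chosen after seeing the data, and 0 to 7 when a library was left out. E2 genes called lower, 0 with all libraries, numbered 1 after quantile normalization, 1 after the lowess correction and 0 to 1 when a library was left out. STUB1-partner genes called, 1 with all libraries, numbered 0 without a trend, 0 after median-ratio scaling, 0 after quantile normalization and 0 to 1 when a library was left out. Genes called higher over the pathway lists, 13 with all libraries, numbered 20 after the lowess correction, 8 with no filter and 3 to 25 when a library was left out. Those called lower, 1 with all libraries, numbered 0 without a trend, 5 after the lowess correction, 3 after median-ratio scaling, 4 after quantile normalization and 0 to 8 when a library was left out. The highest counts in these ranges came without oeSTUB1 replicate 2, and 0 E2 genes were called without any 1 of the oeNC libraries. Of all 15353 tested genes, 2088 were called with all libraries, 1076 of them higher. These counts were 1870 and 894 without a trend, 2034 and 943 after median-ratio scaling and 2230 and 1111 after quantile normalization. They were 3322 and 1675 after the lowess correction and 4112 and 2274 without oeSTUB1 replicate 2. Without oeNC replicate 1, 2 and 3 they were 965 and 491, 933 and 477, and 1041 and 564. The causes were not tested, except that leaving out a library tests fewer samples.

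With the replicate number as a block, 1 E2 gene was higher (UBE2Q2), 0 partner genes were called and 0 list genes were lower, and 1488 of all tested genes were called, against 2088. Deviations of libraries with the same number correlated at -0.05, -0.05 and 0.06, so the numbers were not taken to pair libraries.

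Log2 fold changes near 0 changed sign. After quantile normalization they were -0.01 for UBE2D3, -0.03 for UBE2E1, -0.01 for UBE2O, -0.05 for UBE2S, -0.01 for UBE2T and 0.00 for UBE2Z. UBE2O was at -0.01 after median-ratio scaling and UBE2T at -0.02 after the lowess correction. With a library left out, the ranges were -0.08 to 0.14 for UBE2E3, -0.06 to 0.07 for UBE2H, -0.04 to 0.10 for UBE2O, -0.16 to 0.18 for UBE2S, -0.07 to 0.15 for UBE2T and -0.01 to 0.09 for UBE2W. Depth limits UBE2V1, with 26 to 69 fragments per library, and UBE2L5.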

Other observations

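In the table, 7 genes with symbols that start with UBE2 fell outside the family as defined, and 1 of them passed the filter. UBE2D3-AS1, an antisense gene at the UBE2D3 locus, stood at 1.03, 1.06 and 0.973 FPKM in oeNC and at 1.31, 0.925 and 1.05 FPKM in oeSTUB1 (log2 fold change 0.08, limma, adjusted p = 0.77). The groups overlapped. The readthrough gene UBE2F-SCLY stood at 0.0194 FPKM in oeNC replicate 1 and was listed at 0 in the other 5 libraries.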
